A study of Homo sapiens with 12 samples.

Results

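SRF (serum response factor) and 9 genes of the actin cytoskeleton were followed through serum stimulation and acute KAP1 depletion. The 10 genes, SRF, ACTB, ACTG1, ACTG2, VCL, TPM1, MYL9, FHL2, FLNA and TAGLN were taken by symbol from 19901 genes, and each matched 1 Ensembl identifier. They were chosen with earlier results of these data known. RNA-Seq was performed on HCT116 cells, an established human colorectal carcinoma line, in which endogenous KAP1 (encoded by TRIM28) carries a C-terminal FKBP-derived degron that the dTAG ligand directs to the proteasome. A single clone, KAP1_dTAG_CloneD5, was used throughout, so that the controls also carry the tagged KAP1 and have its RNA. Serum was withdrawn for 48 h in all 4 groups, with DMSO or dTAG added for the last 8 h. DMSO-S0 received DMSO and no serum, DMSO-S30 received DMSO and 30 min of serum, dTAG-S0 received dTAG and no serum, and dTAG-S30 received dTAG and 30 min of serum. There were 3 libraries in each group, which the study describes as biological replicates. The comparisons ask how these genes respond to serum, and whether that response differs once KAP1 has been depleted.

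SRF is a DNA-binding transcription factor that recognises the CArG box. It works with 2 families of partners. Ternary complex factors (ELK1, ELK3, ELK4) are activated by MAP kinases and drive classical immediate early genes (IEGs) such as FOS and EGR1. Myocardin-related factors (MRTFA, MRTFB) are held by monomeric actin and are released when filaments assemble. Genes of the second branch encode actins, actin-binding proteins and SRF itself, so that the pathway is known for feeding back on its own components.

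A total of 20537682 to 26278707 counts were assigned per library, of which 7.97% to 9.37% fell on ERCC spike-in RNAs. TRIM28 RNA was not called between dTAG and DMSO (log2 fold change -0.06 without serum and -0.05 with serum, edgeR adjusted p = 0.780 and 0.862). The degron acts on the protein, so this RNA does not measure depletion. Epithelial markers summed to between 1178 and 1666 CPM (counts relative to the scaled library total) over the 12 libraries, 7 of the 8 listed passed the filter on counts, and VIL1 reached at most 7 counts. Smooth muscle markers, which matter here because ACTG2, MYL9 and TAGLN are abundant in that tissue, summed to between 10.5 and 14.4 CPM. Of the 6 listed, 3 passed the filter, namely ACTA2 (135 to 219 counts), SYNPO2 (23 to 66) and DES (10 to 31). MYH11 had at most 10 counts in any library, LMOD1 at most 13 and CNN1 at most 13. These sums ranged from 12.4 to 14.4 CPM in DMSO-S0 and from 12.4 to 13.9 CPM in DMSO-S30, from 10.5 to 11.5 CPM in dTAG-S0 and from 10.5 to 12.3 CPM in dTAG-S30. The sum of the 6 fibroblast markers lay between 13.8 and 16.4 CPM in DMSO-S0 and between 79.4 and 85.9 CPM in DMSO-S30, with 12.4 to 15.3 CPM in dTAG-S0 and 66.2 to 78.2 CPM in dTAG-S30. Of these only COL1A1 passed the filter (250 to 1789 counts), while LUM had 0 counts in every library. Blood cell markers summed to at most 1.98 CPM and endothelial markers to at most 3.97 CPM in any library. The part of these markers in the results below was not tested.

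The promoters were searched for the element that SRF binds. RefSeq start sites were available for 7 of the 10 genes, in 11 windows of 250 bases before to 50 bases after the start (GRCh38.p14). ACTB, MYL9 and TAGLN had no entry. A perfect match to the CArG box, whose pattern reads the same on both strands, was found in 7 of the 11 windows, belonging to SRF, ACTG2, ACTG1, FLNA and FHL2. Over all 35116 windows of the same length, 454 (1.29%) held a match. The 120 bases before the start are given for the genes with a match and for TPM1 as 1 without, with the CArG box in capitals and the last base adjacent to the start.
SRF, chr6:43171149-43171268, plus strand: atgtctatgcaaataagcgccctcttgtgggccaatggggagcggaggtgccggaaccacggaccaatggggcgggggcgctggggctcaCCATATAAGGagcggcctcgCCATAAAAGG
ACTG2, chr2:73892888-73893007, plus strand: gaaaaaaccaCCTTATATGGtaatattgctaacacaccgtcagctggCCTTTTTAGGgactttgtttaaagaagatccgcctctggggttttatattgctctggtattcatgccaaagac
ACTG1, chr17:81512800-81512919, minus strand: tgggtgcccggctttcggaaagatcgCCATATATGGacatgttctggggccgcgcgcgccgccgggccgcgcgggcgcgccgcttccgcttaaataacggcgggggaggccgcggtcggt
FLNA, chrX:154374635-154374754, minus strand: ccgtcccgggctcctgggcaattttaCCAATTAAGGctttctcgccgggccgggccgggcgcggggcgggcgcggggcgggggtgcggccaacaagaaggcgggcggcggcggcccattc
FHL2, chr2:105438514-105438633, minus strand: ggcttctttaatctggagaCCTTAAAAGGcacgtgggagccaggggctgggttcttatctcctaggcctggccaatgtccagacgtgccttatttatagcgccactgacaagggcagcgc
FHL2, chr2:105399052-105399171, minus strand: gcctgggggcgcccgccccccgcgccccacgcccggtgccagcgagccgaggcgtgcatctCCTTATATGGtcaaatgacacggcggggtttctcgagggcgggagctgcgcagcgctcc
TPM1, chr15:63048369-63048488, plus strand: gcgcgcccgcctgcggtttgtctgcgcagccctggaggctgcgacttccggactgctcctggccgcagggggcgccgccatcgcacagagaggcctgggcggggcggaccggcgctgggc
SRF held a pair of boxes, at bases -30 to -21 and -10 to -1 from the start of its first window, and none in its second window. ACTG2 likewise held a pair, at bases -110 to -101 and -73 to -64. The boxes of ACTG1 and FLNA both lay at bases -94 to -85. FHL2 had 4 windows, of which 3 held 1 match each, and a pair of those windows overlap and share the same box. VCL and TPM1 had no perfect match in their windows. A match is a description of these letters and not a measured site, and no match says only that the letters are not in the window.

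**Figure D1:**
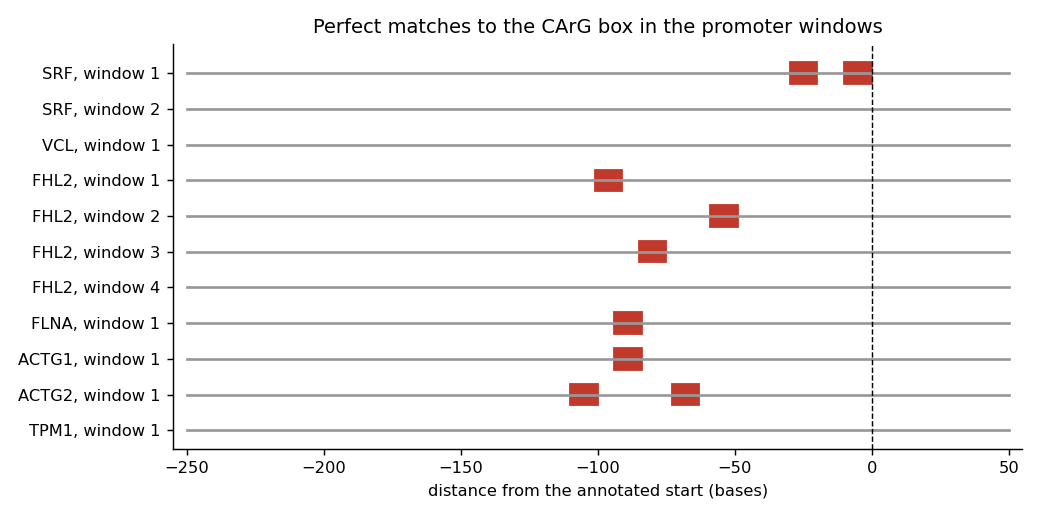
Each grey line is 1 RefSeq promoter window, with distance from the annotated start in bases on the x axis, the start as a dashed line and perfect CArG box matches as red blocks. Of the 11 windows 7 hold at least 1 match, and every match lies before the start, between bases -110 and -1.

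Serum raised most of these genes within 30 min. In DMSO-treated cells, 8 of the 9 genes other than ACTG2 passed the threshold as higher in DMSO-S30 than in DMSO-S0, against 9.39% of all 13093 genes tested that were called higher and 17.9% that were called lower. A gene was called at an adjusted p under 0.05 in edgeR's quasi-likelihood test, with Benjamini-Hochberg adjustment over all genes tested. The median log2 fold change of the 9 genes was 1.79, while that of all genes tested was -0.07. Because the genes were chosen with earlier results of these data known, these values describe them and test no enrichment. ACTG2 was also called, but it passed the filter of 10 counts in 6 libraries only through the libraries with serum and had to differ. The share of all reads on genes that fell on the 10 genes was 0.264% ± 0.0133 (SD, n = 3) in DMSO-S0 and 0.479% ± 0.0161 in DMSO-S30. Fewer transcripts per cell and fewer expressing cells cannot be told apart in these bulk libraries.

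**Figure D2:**
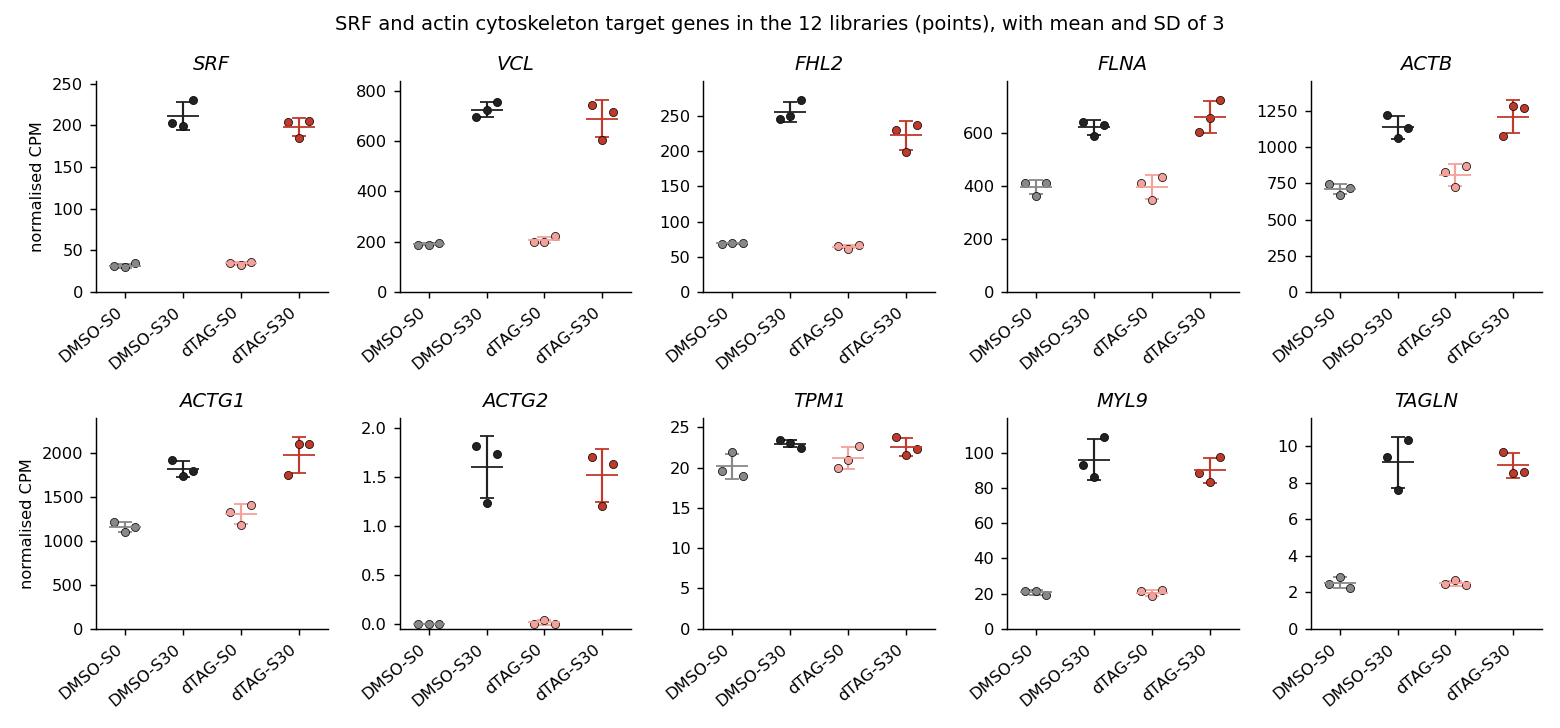
Normalised CPM of the 10 genes (y axis, linear) in the 4 groups (x axis). Points are libraries, the horizontal bar is the mean and the whiskers are the SD of 3 libraries. SRF rises from 29.6 to 34.5 CPM in DMSO-S0 to 199 to 230 CPM in DMSO-S30 and lies at a similar height in dTAG-S30 (185 to 206 CPM), while TPM1 stays between 18.9 and 23.8 CPM in every library.

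SRF itself (ENSG00000112658, chr6:43171299-43181507, plus strand, hg38) was at 31.3, 29.6 and 34.5 normalised CPM in the DMSO-S0 libraries and at 203, 199 and 230 CPM in the DMSO-S30 libraries. The groups lay far apart, and this was a rise of 6.60-fold (log2 fold change 2.72, SE 0.07, edgeR adjusted p = 2.39e-21). In dTAG-treated cells SRF was at 34.3, 32.7 and 35.9 CPM without serum and at 204, 185 and 206 CPM with serum, a rise of 5.78-fold (log2 fold change 2.53, SE 0.07, edgeR adjusted p = 3.97e-21). Among all genes tested SRF ranked 64 by its log2 fold change in DMSO and 59 in dTAG.

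The genes that link filaments to adhesions and signals rose by unequal amounts. VCL encodes vinculin, which couples integrin adhesions to actin filaments (ENSG00000035403, chr10:73995193-74121363, plus strand). It was at 188, 187 and 194 CPM in DMSO-S0 and at 696, 724 and 756 CPM in DMSO-S30, a rise of 3.81-fold (log2 fold change 1.93, SE 0.07, edgeR adjusted p = 5.75e-18). All libraries with serum lay above all libraries without it, also in dTAG-treated cells, where VCL was at 199, 199 and 222 CPM without serum and at 744, 604 and 717 CPM with serum (log2 fold change 1.74, SE 0.07). FHL2, a LIM-domain protein that binds SRF and adhesion proteins (ENSG00000115641, chr2:105357712-105438513, minus strand), was at 68.4, 69.0 and 70.1 CPM in DMSO-S0 and at 246, 250 and 272 CPM in DMSO-S30. This was a rise of 3.70-fold (log2 fold change 1.89, SE 0.07, edgeR adjusted p = 1.81e-18). After dTAG, FHL2 went from 65.4, 61.7 and 66.6 CPM to 230, 199 and 237 CPM (log2 fold change 1.78, SE 0.07). FLNA, filamin A, which crosslinks filaments (ENSG00000196924, chrX:154348524-154374638, minus strand), moved less. It was at 413, 365 and 412 CPM in DMSO-S0 and at 644, 589 and 633 CPM in DMSO-S30, a rise of 59.9% (log2 fold change 0.68, SE 0.08, edgeR adjusted p = 1.30e-07). In dTAG the corresponding values were 411, 349 and 436 CPM and 606, 657 and 725 CPM (log2 fold change 0.72, SE 0.08). Every library with serum was above every library without it for FLNA too.

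The cytoplasmic actins, the building blocks of the filaments of non-muscle cells, also rose by about this much. ACTB, β-actin (ENSG00000075624, chr7:5527147-5563784, minus strand), was at 746, 674 and 717 CPM in DMSO-S0 and at 1222, 1063 and 1130 CPM in DMSO-S30, a rise of 1.63-fold (log2 fold change 0.70, SE 0.08, edgeR adjusted p = 6.11e-08). ACTG1, cytoplasmic γ-actin (ENSG00000184009, chr17:81509971-81523847, minus strand), was at 1210, 1106 and 1157 CPM in DMSO-S0 and at 1918, 1736 and 1793 CPM in DMSO-S30, a rise of 1.61-fold (log2 fold change 0.68, SE 0.08, edgeR adjusted p = 6.70e-08). In neither gene did the groups overlap. After dTAG, ACTB went from 831, 723 and 867 CPM to 1080, 1285 and 1269 CPM (log2 fold change 0.57, SE 0.07) and ACTG1 from 1332, 1185 and 1402 CPM to 1745, 2097 and 2096 CPM (log2 fold change 0.58, SE 0.07).

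ACTG2 encodes the γ-actin of enteric smooth muscle (ENSG00000163017, chr2:73892314-73919865, plus strand) and was the sparsest of the 10 genes. It had 0 counts in the DMSO-S0 libraries and 37, 28 and 36 counts in the DMSO-S30 libraries (1.82, 1.23 and 1.74 CPM). With 3 counts per library as the floor, this was at least 10.8-fold higher. In dTAG-S0 it had 0, 1 and 0 counts and in dTAG-S30 38, 27 and 36 counts, a ratio of 103.5 with an exact 95% interval of 18.2 to 4130 that covers counting error only. Actins have near-identical coding sequences, and how reads that match several genes were counted is not given in the sources used here, so the 3 actins are uncertain to that extent. ACTB and ACTG1 rose 1.63-fold and 1.61-fold over the same libraries. ACTA2, the smooth muscle α-actin, was not called with serum (log2 fold change -0.29, edgeR adjusted p = 0.0879), and ACTA1 and ACTC1 had at most 7 counts and 1 count in any library.

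The contractile genes MYL9 and TAGLN rose by more than the cytoplasmic actins did. MYL9, a regulatory light chain of myosin (ENSG00000101335, chr20:36541484-36551447, plus strand), was at 21.3, 21.6 and 19.2 CPM in DMSO-S0 and at 92.8, 86.2 and 109 CPM in DMSO-S30, a rise of 4.69-fold (log2 fold change 2.23, SE 0.09, edgeR adjusted p = 2.61e-17). After dTAG it went from 21.3, 18.4 and 21.8 CPM to 88.6, 83.4 and 97.6 CPM (log2 fold change 2.12, SE 0.09). TAGLN, transgelin, an actin-binding protein of the calponin family (ENSG00000149591, chr11:117199321-117204782, plus strand), had only 46 to 62 counts in the DMSO-S0 libraries. It was at 2.44, 2.84 and 2.26 CPM in DMSO-S0 and at 9.38, 7.58 and 10.3 CPM in DMSO-S30, a rise of 3.47-fold (log2 fold change 1.79, SE 0.16, edgeR adjusted p = 7.10e-10). After dTAG, TAGLN went from 2.44, 2.64 and 2.37 CPM to 9.70, 8.54 and 8.57 CPM (log2 fold change 1.86, SE 0.15). The groups with and without serum did not overlap for either gene.

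TPM1, a tropomyosin that lies along actin filaments (ENSG00000140416, chr15:63042632-63071915, plus strand), was the 1 gene that did not pass. It was at 19.6, 21.9 and 18.9 CPM in DMSO-S0 and at 23.4, 23.0 and 22.5 CPM in DMSO-S30. The libraries with serum were all above those without, but the difference was small (log2 fold change 0.18, 95% interval -0.00 to 0.36, edgeR adjusted p = 0.131). It passed with TMM scaling (log2 fold change 0.25, edgeR adjusted p = 0.0382) and without DMSO-S0 replicate 2 (log2 fold change 0.25, edgeR adjusted p = 0.0496). After dTAG the groups overlapped, at 19.98, 20.87 and 22.61 CPM without serum and at 23.79, 21.55 and 22.25 CPM with serum (log2 fold change 0.09, 95% interval -0.07 to 0.26, edgeR adjusted p = 0.435).

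In dTAG-treated cells, 8 of the 9 genes other than ACTG2 (all but TPM1) were called higher in dTAG-S30 than in dTAG-S0, with a median log2 fold change of 1.74 against -0.06 over all genes tested, of which 9.31% were called higher and 16.2% lower. The largest adjusted p of these 8 genes was that of ACTB (1.09e-06 in edgeR's test). The 2 serum comparisons share no library, but they come from the same fit and share its estimate of the spread and its ERCC factor.

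**Figure D3:**
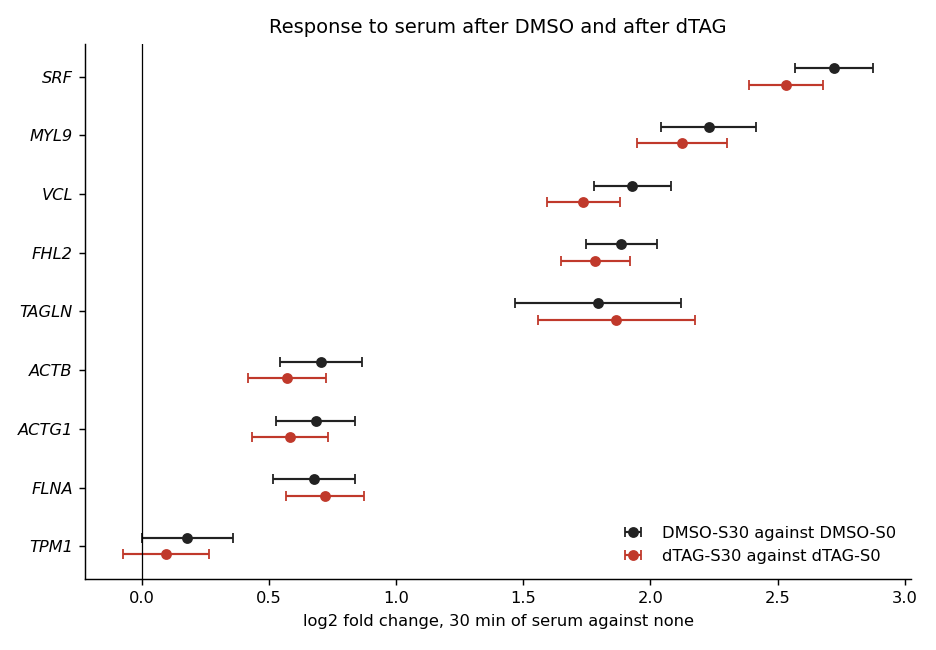
Log2 fold change with 30 min of serum (x axis) for the 9 genes other than ACTG2, in DMSO-treated cells (black) and dTAG-treated cells (red). Points are the fitted values of 3 against 3 libraries and bars their 95% intervals. Black and red intervals overlap for each gene, and TPM1 is the 1 gene whose intervals reach 0.

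Levels can be compared between genes only per length, and were set per kb of the counted span, which runs from the first to the last base of the gene and includes introns. In DMSO-S0 the order of mean CPM per kb was ACTG1 (83.4), ACTB (19.4), FLNA (15.2), SRF (3.11), MYL9 (2.08), VCL (1.504), FHL2 (0.856), TPM1 (0.687) and TAGLN (0.460), with ACTG2 at 0. No 2 neighbours in this order had overlapping ranges over their 3 libraries. In DMSO-S30 the level of SRF was 20.7 CPM per kb, next below FLNA at 23.8, MYL9 was at 9.63 and TAGLN at 1.67, above TPM1 at 0.784. Long introns lower this level for VCL, where annotated exons (GENCODE 44) make up 7.92% of the span, and for FHL2 (8.20%), compared with 80.9% for TAGLN. MYL9 lies within DLGAP4-AS1, a long noncoding RNA of the other strand, over its whole counted span of 9964 bases. VCL overlaps 1109 bases of AP3M1 and TAGLN 446 bases of PCSK7, both protein-coding genes of the other strand. Other-strand long noncoding RNAs also overlap FHL2 by 15802 bases, ACTG1 by up to 9801 bases, and ACTB, TPM1 and FLNA by fewer. The strand setting of the counting is not given in the sources used here. VCL also overlaps a long noncoding RNA of its own strand by 22779 bases, which no strand setting would separate.

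None of the 10 genes passed the test between dTAG and DMSO. Without serum, 0 of the 9 genes other than ACTG2 were called between dTAG-S0 and DMSO-S0 by edgeR's quasi-likelihood test, against 1.47% of all genes tested. ACTG2 had at most 1 count in any of these libraries and so could not pass, and DESeq2 gave it no adjusted p. Of the 9 genes, DESeq2 called 0, and 2 had an unadjusted p under 0.05 in edgeR's test. The 2 genes were the cytoplasmic actins, whose dTAG-S0 libraries overlapped those of DMSO-S0. ACTB was higher by 14.5% (95% interval 2.93% to 27.3%, edgeR adjusted p = 0.247) and ACTG1 by 14.3% (95% interval 3.0% to 26.8%, edgeR adjusted p = 0.239). Without dTAG-S0 replicate 2, which was the lowest dTAG-S0 library for ACTB, ACTB passed (log2 fold change 0.27, edgeR adjusted p = 0.0482). The difference for SRF was 0.11 on the log2 scale (95% interval -0.05 to 0.26) and for VCL 0.12 (95% interval -0.02 to 0.27), although all 3 dTAG-S0 libraries of VCL were above those of DMSO-S0. Over the 9 genes other than ACTG2, the intervals reached from -0.42 to 0.35 on the log2 scale.

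With serum, 0 of the 10 genes were called between dTAG-S30 and DMSO-S30 by edgeR, against 1.25% of all genes tested. DESeq2 called 0 as well, but gave ACTG2 no adjusted p. In edgeR's test 1 gene had an unadjusted p under 0.05. This was FHL2, for which all 3 dTAG-S30 libraries (199 to 237 CPM) were below all 3 DMSO-S30 libraries (246 to 272 CPM). The difference was -13.1% (95% interval -20.7% to -4.84%, edgeR adjusted p = 0.144). Without dTAG-S30 replicate 3, its highest dTAG-S30 library, FHL2 passed (log2 fold change -0.26, edgeR adjusted p = 0.0117). Without serum the FHL2 libraries of dTAG-S0 lay below those of DMSO-S0, but the difference was not called (log2 fold change -0.10, 95% interval -0.24 to 0.04, edgeR adjusted p = 0.592). How often libraries separate in this way over all genes was not counted. SRF differed by -0.08 on the log2 scale (95% interval -0.22 to 0.05), MYL9 by -0.11 (95% interval -0.27 to 0.06) and VCL by -0.07 (95% interval -0.21 to 0.07). ACTG2 differed by 0.04 on the log2 scale, with a 95% interval of -0.54 to 0.63 at its counts of 27 to 38.

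The difference between the serum responses was then tested as the interaction of serum and dTAG, which uses all 12 libraries and so shares them with every comparison above. None of the 10 genes was called in edgeR's test, 0 had an unadjusted p under 0.05, and 0.0458% of all genes tested were called. DESeq2 called 0 as well, but gave ACTG2 and TAGLN no adjusted p. With at most 1 count per library without serum, ACTG2 had an SE of 1.71 on the log2 scale. The fitted response after dTAG was below that after DMSO for 7 of the 9 genes other than ACTG2, with a median of -0.10 on the log2 scale, beside 0.00 over all genes tested. The lowest values were those of VCL (-0.19, 95% interval -0.40 to 0.01, unadjusted p = 0.0669) and SRF (-0.19, 95% interval -0.40 to 0.02, unadjusted p = 0.0758), both with an edgeR adjusted p of 0.9999. FLNA (0.04) and TAGLN (0.07) lay above 0. As a change in the serum response, these intervals reach down to -24.2% for VCL and -24.3% for SRF. In related groups described below, the median interaction was -0.05 for other actin filament and adhesion genes and -0.06 for actin monomer and filament turnover genes. It was -0.31 for 8 IEGs and 0.04 for the SRF cofactors.

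**Figure D4:**
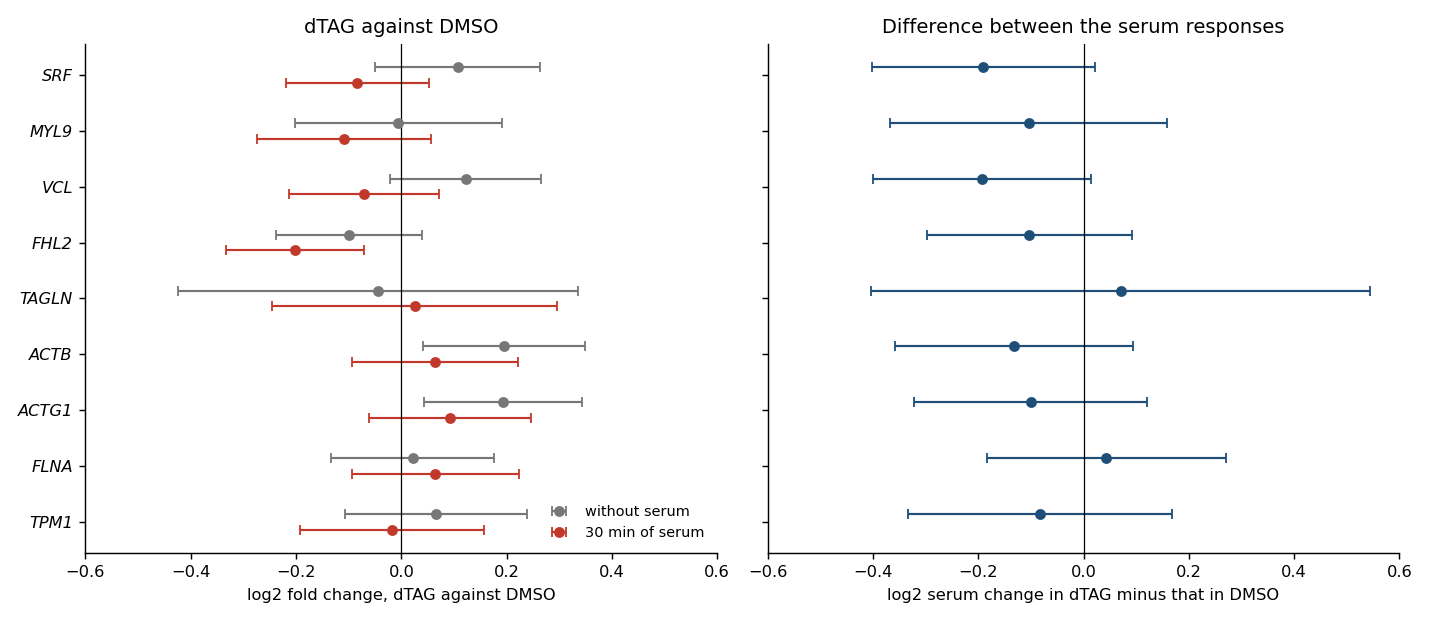
Left, log2 fold change of dTAG against DMSO (x axis) without serum (grey) and with 30 min of serum (red). Right, the log2 serum change in dTAG minus that in DMSO (x axis). Points are fitted values for the 9 genes other than ACTG2 and bars 95% intervals. In the left panel the intervals of ACTB and ACTG1 without serum and of FHL2 with serum leave out 0, before adjustment over all genes, and in the right panel every interval includes 0.

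The partners of SRF were examined in the same way. Of 6 listed cofactors, MYOCD, the cardiac and smooth muscle coactivator, reached at most 2 counts and was not tested. ELK1 was the 1 of the other 5 called higher with serum in DMSO (log2 fold change 0.21, edgeR adjusted p = 0.0253). Over all genes tested 9.39% were called higher there. With serum in dTAG 0 of 5 were called, beside 9.31% higher and 16.2% lower over all genes tested. None was called between dTAG and DMSO, beside 1.47% of all genes tested without serum and 1.25% with serum. So few genes say little beside these shares. MRTFA was at 80.8 ± 6.68 CPM in DMSO-S0 and 73.6 ± 2.67 CPM in DMSO-S30 (SD, n = 3), and MRTFB at 158 ± 11.3 CPM and 144 ± 3.47 CPM.

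Other genes of the cytoskeleton moved with serum in part. Of 29 further actin filament and adhesion genes tested, 19 were called higher and 0 lower in DMSO. Over all genes tested 9.39% were called higher there and 17.9% lower. The median log2 fold change of the 29 genes was 0.37. Leading were ZYX (1.61), a zyxin of focal adhesions, the tropomyosin TPM4 (1.56) and the calponin CNN2 (1.30). In dTAG 19 were called higher and FHL3 lower (log2 fold change -0.39), beside 9.31% higher and 16.2% lower over all genes tested. Of 20 genes of actin monomer and filament turnover 7 were higher in DMSO and 0 lower, led by WDR1 (1.08), a cofactor of cofilin in disassembly, VASP (0.78), which promotes elongation of filaments, and the capping protein subunit CAPZB (0.35). In dTAG 5 of these were higher and 1 lower. None of the genes of these 2 groups was called between dTAG and DMSO, beside 1.47% of all genes tested without serum and 1.25% with serum. With shares this low, the absence of calls among so few genes says little. The lists were chosen with earlier results of these data known, so these counts test no enrichment.

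Classical targets of the ternary complex factors rose with serum. Of 9 listed IEGs, EGR4 (0 to 35 counts over the libraries) passed the filter on counts only through the libraries with serum and is set aside. The other 8 were called higher in both serum comparisons, beside 9.39% of all genes tested in DMSO and 9.31% in dTAG. The median log2 fold change of the 8 was 4.29 in DMSO and 3.86 in dTAG. With ACTG2 left aside, they overlapped the SRF and actin genes through MCL1 alone, a survival factor of the BCL2 family. MCL1 rose by 1.02 on the log2 scale in DMSO and so by less than SRF, MYL9, VCL, FHL2 and TAGLN. FOS reached 6.48, FOSB 6.41 and EGR3 5.62 on the log2 scale in DMSO. Between dTAG-S30 and DMSO-S30, 3 of the 8 were called lower, namely EGR3 (log2 fold change -0.42), EGR2 (-0.39) and FOS (-0.32), with edgeR adjusted p of 0.00165, 0.0108 and 0.0108. Of all genes tested 1.25% were called there in either direction. The interaction was called for 0 of the 8 by edgeR, beside 0.0458% of all genes tested. Whether the 2 groups of genes differ in their response to serum or dTAG was not tested.

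**Figure D5:**
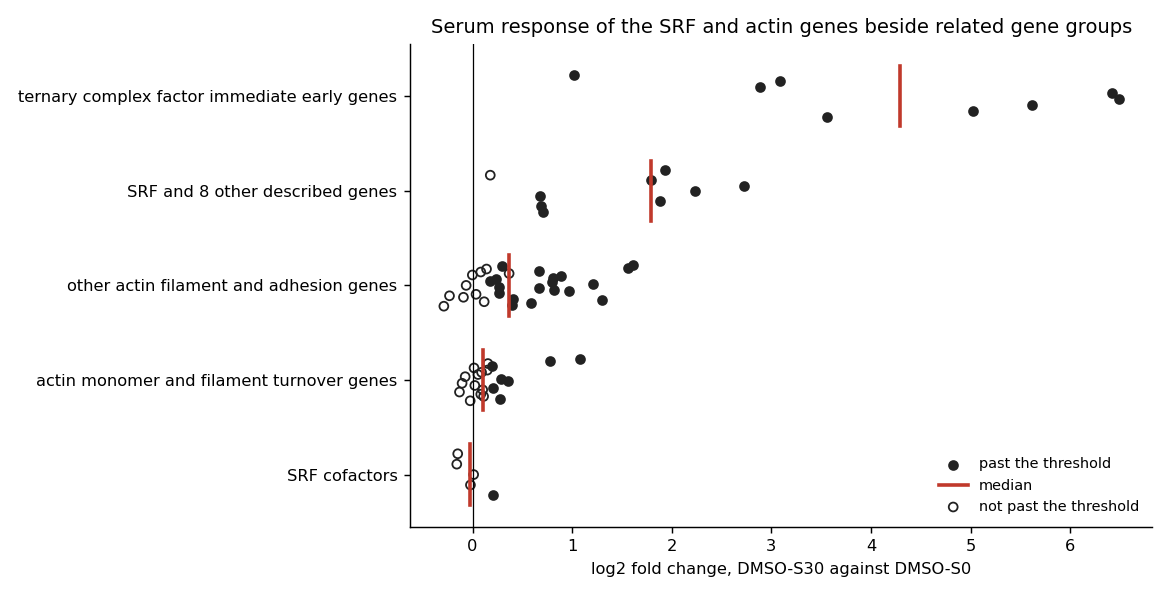
Log2 fold change of DMSO-S30 against DMSO-S0 (x axis) for single genes (circles), by group (rows). Filled circles passed the threshold, open circles did not, and the red bar is the median of the genes tested. The median is 4.29 for the 8 IEGs of ternary complex factors without EGR4 and 1.79 for SRF and the 8 other genes without ACTG2. The points of these 2 groups overlap through MCL1 alone, and the SRF cofactors lie around 0.

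Over the 12 libraries, log2 CPM of VCL (Pearson r = 0.998), MYL9 (0.996), FHL2 (0.995), ACTG2 (0.994) and TAGLN (0.988) followed SRF most closely among the members, FLNA (0.961), ACTB (0.941) and ACTG1 (0.938) less so, and TPM1 least (0.704). Among the other genes tested the highest values were those of FOSL1 (0.999), GEM (0.999) and NR4A2 (0.999). These coefficients describe 12 libraries that fall into those with and without serum, and any gene that responds to serum gives a high value.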

How the data were processed

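Total RNA of 12 libraries was depleted of ribosomal RNA and sequenced. The authors trimmed reads with Trim Galore 0.6.4, mapped them to hg38 with STAR and deposited counts per protein-coding gene, taken over the entire gene with featureCounts (Subread 1.6.3), together with ERCC spike-ins. Their annotation version, strand setting and treatment of multi-mapped reads are not given in the sources used here. Introns are included, so that counts hold precursor RNA as well as mature RNA.

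Genes with at least 10 counts in 6 libraries were kept (13093 of 19901), with 69 of 92 ERCC transcripts. Counts were scaled by the upper quartile, the ERCC transcripts gave 1 RUVg factor as a covariate, and the 4 groups were fitted together in edgeR 4.0.16 (quasi-likelihood F-test, two-sided, Benjamini-Hochberg over all genes tested, R 4.3.3). CPM use the same scaling. Intervals are 95% intervals of the fit and do not allow for the number of genes. Total counts per library (20537682 to 26278707) set the precision of sparse genes, and exact intervals and floors of 3 counts cover counting error only. Replicate libraries of a group differed beyond sampling noise, with Spearman correlations of 0.996 to 0.998 over genes. Scripts were tested on simulated data.

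The alternatives were TMM scaling, ERCC library sizes, 0 or 2 factors, no count filter, the likelihood ratio test, DESeq2 1.42.0, a fit of only the groups compared, a replicate block, and each library left out. Replicate numbers were not used as pairs. Named genes, apart from the list not reported here, were all members, the 3 with the largest change per related list, those called between dTAG and DMSO, the 3 most like SRF and TRIM28, whereas ACTA2, FHL3, EGR4, MCL1 and COL1A1 were named after their values were seen. The members and lists were chosen with earlier results of these data known. Promoter windows are from RefSeq (GRCh38.p14).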

Additional observations from a re-analysis of the deposited data

How the results depend on the processing

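Of 1003 values of the single genes under the alternatives, 999 stayed on their side of the threshold and 4 came to pass it, all named above (TPM1 with serum in DMSO under TMM scaling and without DMSO-S0 replicate 2, ACTB without serum without dTAG-S0 replicate 2, FHL2 with serum without dTAG-S30 replicate 3). Over all their alternatives the adjusted p ranged from 0.0382 to 0.425 for TPM1, from 0.0482 to 0.581 for ACTB and from 0.0117 to 0.670 for FHL2 in those comparisons. The cause was not tested. No called value changed its sign. Among values that were not called, 47 alternatives of 14 comparisons of single genes between dTAG and DMSO or in the interaction had the other sign, at most 0.11 from 0 on the log2 scale. The number of members called, with ACTG2 counted where it was tested, was 8 to 10 with serum in DMSO and 8 to 9 with serum in dTAG. With libraries left out in turn it ranged from 0 to 1 for dTAG against DMSO without serum, and from 0 to 1 for dTAG against DMSO with serum, and it was 0 throughout for the interaction. ACTG2 gave no value where any library with serum was left out or only the groups compared were fitted, other than dTAG-S30 against DMSO-S30, as it then fell under the count filter. DESeq2 gave it no adjusted p in 3 comparisons, and gave none for TAGLN in the interaction.

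Scaling decided the balance over all genes, though not over the members. Higher calls made up 34.4% of the serum calls in DMSO over all genes in the reported fit, 61.4% with TMM scaling, 66.5% with ERCC library sizes and 33.0% with no factor. In dTAG these were 36.4%, 61.3%, 62.5% and 36.5%. The median of all genes moved by at most 0.07 on the log2 scale.

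Same-numbered libraries did not deviate together, with correlations of -0.15 to 0.14 over 18 pairs, 1 of them over 0.1, and 8 of 18 correlating best with their own number. With a replicate block, 9, 9, 0, 0 and 0 members (ACTG2 among the 9) were called in the 2 serum comparisons, the 2 dTAG comparisons and the interaction, and 3665 in place of 3575 genes in all were called with serum in DMSO. The promoter match was found in 5 members with the whole window and in 5 with the 250 bases before the start alone. Sparse counts limit ACTG2 and TAGLN most.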

Other observations

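Perfect CArG box matches were also counted outside the 10 genes. This count was made after the data were seen and is a description without a test. Of 10414 genes tested with a RefSeq window, 176 held a match, and 5 of these are members. Of the other 171 genes, 42 (24.6%) were called higher with serum in DMSO by edgeR and 17 (9.94%) were higher by at least 2-fold, beside 9.54% and 2.17% of all 10414 genes. Any gene that passed the filter on counts only through the libraries with serum, as ACTG2 did, was not set aside here. The ones that rose most were GPR183 (log2 fold change 6.10), a receptor for oxysterols, EGR2 (5.02), ASB2 (4.43), EGR1 (3.56) and ISG15 (2.97), an interferon-inducible ubiquitin-like protein, followed by FILIP1L (2.84) and LDB3 (2.76), a protein of muscle Z-discs. The SE was 0.36 for GPR183, 0.48 for ASB2 and 0.52 for FILIP1L, and whether these 3 had to differ was not examined. TPM4 (1.56) held a match. TPM1, which was not called, had none in its window, and neither had VCL, which rose (1.93).

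Between dTAG-S30 and DMSO-S30, 1 of the 176 genes with a match was called (0.568%, beside 1.25% of all genes tested), and between dTAG-S0 and DMSO-S0 3 were (1.70%, beside 1.47%). The median log2 fold changes of the 176 genes were -0.02 and 0.01. Here the 176 genes include the 5 members, and the shares beside them are of all 13093 genes tested, with or without a window.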
